A study of Arabidopsis thaliana with 12 samples.

Results

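The 37 genes described here are rapid touch and wound response genes of Arabidopsis thaliana, among 27655 genes measured in the series. They were picked by gene identifier for their known roles and with their values in these 12 libraries in view, so their levels and differences are a description and are not offered as evidence for the choice. The set holds 4 genes of mRNA decay, 9 ERF and DREB transcription factor genes, 5 ZAT zinc finger factor genes, 6 genes of calcium sensors, 3 genes of cell wall or secreted proteins, 2 MAP kinase cascade genes, 6 ubiquitin ligase genes and 2 genes of a membrane-bound and a mitochondrial protein. The seedlings were wild type Col-0, grown in 96-well plates with 6 to 8 seeds per well, and their age is given as 8 days in the sample labels and 7 days in the text of the series. They received liquid medium with 1.5% sucrose and 10 µM 3'-butyl ABA, 10 µM 3'-propyl ABA, 10 µM abscisic acid (ABA) or DMSO alone, and were collected after 6 h at 22 °C under continuous light, with 3 libraries per treatment. ABA is the plant hormone of drought and seed dormancy, the other compounds carry a propyl or a butyl group at its 3' carbon, and DMSO is the solvent control. None of the 4 treatments was touch or wounding, every group received fresh liquid medium, and the name of the gene set rests on what is known of the genes. Whole seedlings were pooled, so a change in the share of a cell type cannot be told apart from a change in RNA per cell.

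Touch, wounding and microbial elicitors open calcium channels and activate MAP kinases within minutes. These signals switch on a shared set of early genes whose transcripts are short-lived, and many of their promoters respond to calcium through CAMTA factors, which bind CGCG-type elements. The proteins include calcium sensors that read the signal, transcription factors that pass it on, and deadenylases and ubiquitin ligases that limit it by removing transcripts and proteins.

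The values are TPM, a level per transcript length that sums to 1000000 in each library as the authors deposited it. In genes with 1 annotated transcript, 99.3% of 36570 values worth at most 30 reads came out within 0.05 of a whole number of reads. That step put 1 read per kb of transcript at 0.130 to 0.169 TPM, from which each library had an estimated 9.43 to 12.2 M reads in genes (M, 1000000 reads). Pearson's r of log2 values between replicates was 0.975 to 0.993. Summed light-harvesting and Rubisco transcripts, the 6 leaf mesophyll markers, were 30887 to 32604 TPM with 3'-butyl ABA, 13702 to 19340 with 3'-propyl ABA, 26057 to 31461 with ABA and 21814 to 25372 with DMSO. The 5 guard cell markers summed to 44.4 to 57.6 TPM with 3'-butyl ABA, 35.4 to 42.8 with 3'-propyl ABA, 52.1 to 58.3 with ABA and 73.7 to 81.8 with DMSO. The 7 endodermis markers summed to 95.1 to 123 TPM with 3'-butyl ABA, 38.4 to 59.4 with 3'-propyl ABA, 45.8 to 92.8 with ABA and 53.1 to 125 with DMSO. The 6 root hair markers summed to 96.5 to 204 TPM with 3'-butyl ABA, 65.7 to 110.1 with 3'-propyl ABA, 40.4 to 137 with ABA and 92.7 to 271 with DMSO, and the 4 seed markers to 359 to 569.9 TPM with 3'-butyl ABA, 285 to 707 with 3'-propyl ABA, 301 to 1157 with ABA and 131 to 196 with DMSO. No marker of these lists was at 0 in every library of a treatment. Such a sum can also move through a marker gene that itself responds to a compound, so it does not measure the share of a cell type. Mesophyll and guard cell sums were lowest with 3'-propyl ABA, the treatment in which most of the 37 genes were highest, and their part in the differences was not tested. DMSO replicate 1 (r of 0.979 with each other DMSO library, against 0.991 between those) and ABA replicate 3 (0.975 and 0.982, against 0.990) stood apart, so counts are also given without both, an alternative chosen after seeing the data.

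Most of the 37 genes were highest with 3'-propyl ABA and lowest with ABA or 3'-butyl ABA. The mean was highest with 3'-propyl ABA for 27 of 37 genes (73%), against 27.2% of the 19528 genes that averaged 1 TPM or more. It was lowest with ABA for 18 genes (48.6%, against 6.82% of all tested genes) and with 3'-butyl ABA for 13 (35.1%, against 13%). In 19 of 37 genes (51.4%) every 3'-propyl ABA library lay above every other library, as it did for 14.7% of all tested genes. A gene is called higher or lower below where the adjusted p of a limma fit of all 19528 genes is under 0.05, and 36 of the 37 genes were in that fit. The gene left out was CML39 (AT1G76640), at 0 to 2.97 TPM, and 3 genes (ERF105, ZAT11 and CML39) had a mean under 1 TPM without the 3'-propyl ABA libraries, so ERF105 and ZAT11 entered the fit through them.

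**Figure D1:**
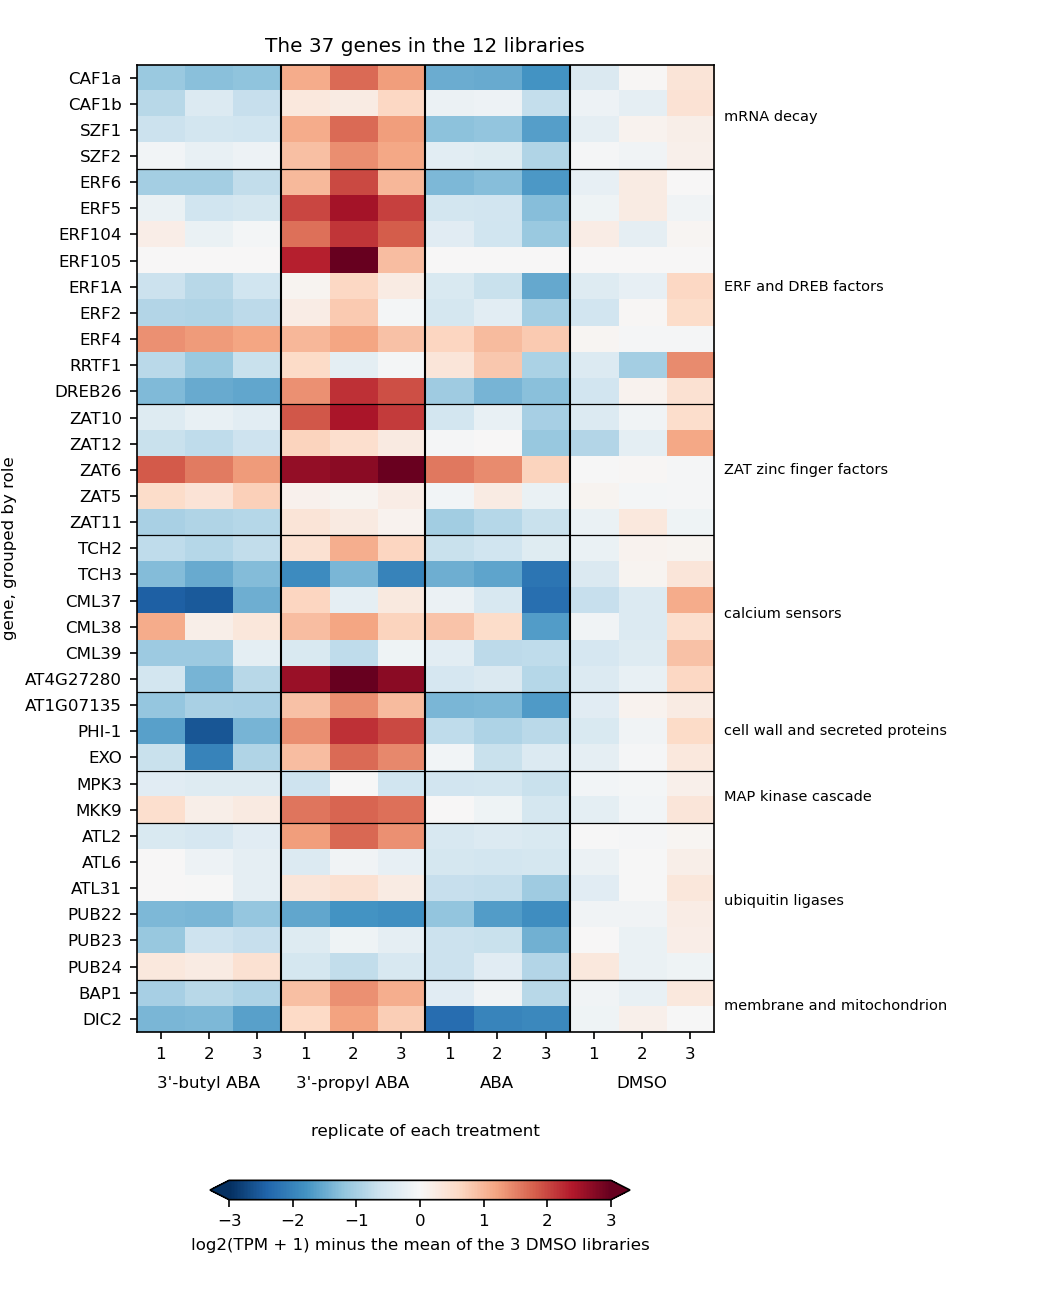
The heat map shows log2(TPM + 1) of each of the 37 genes in each of the 12 libraries minus the mean of the 3 DMSO libraries, with genes in rows by role and libraries in columns by treatment. The block of 3'-propyl ABA is mostly red, with 27 of 37 genes highest there, and the 3'-butyl ABA and ABA blocks are mostly blue.

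Against DMSO, 3 of the 37 genes were called higher and 20 lower with 3'-butyl ABA, beside 25.1% and 25.6% of all tested genes. With 3'-propyl ABA 20 were called higher and 5 lower, beside 27.5% and 38.5% of all genes. The 20 include ERF105, which entered the fit only through its 3'-propyl ABA libraries. With ABA 2 were called higher and 20 lower, beside 22% and 24.7% of all genes. The median log2 fold change of the 36 genes was -0.69 with 3'-butyl ABA, 0.97 with 3'-propyl ABA and -0.61 with ABA, and over all tested genes 0.0011 with 3'-butyl ABA, -0.12 with 3'-propyl ABA and -0.029 with ABA. These 3 comparisons share the DMSO libraries, and the choice of the genes used these values, so nothing is read from the counts. Counted by libraries that did not overlap with DMSO, 3 were higher and 22 lower with 3'-butyl ABA (29.4% and 31.2% of all genes), 22 and 3 with 3'-propyl ABA (28.6% and 40.4%), and 2 and 22 with ABA (23.9% and 29.2%). Without DMSO replicate 1 and ABA replicate 3 the counts higher and lower were 4 and 23 with 3'-butyl ABA, 21 and 5 with 3'-propyl ABA, and 2 and 19 with ABA. Dividing the TPM values by median-of-ratios size factors moved the median of all genes with 3'-propyl ABA from -0.12 to 0.010 on the log2 scale. With that scaling CAF1b and ATL31 were called higher there, and MPK3 and ATL6 were not called, so 3 genes were lower.

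By their calls against DMSO the genes fell into a few patterns. The most common was lower with 3'-butyl ABA, higher with 3'-propyl ABA and lower with ABA, shared by 8 genes: CAF1a, SZF1, ERF6, DREB26, TCH2, AT1G07135, ATL2 and DIC2. Another 4 (AT4G27280, PHI-1, EXO and BAP1) were lower with 3'-butyl ABA and higher with 3'-propyl ABA but not called with ABA. SZF2, ERF5 and ERF104 were higher with 3'-propyl ABA and lower with ABA, and ERF105, ZAT10 and MKK9 were called with 3'-propyl ABA alone. Of these, ERF105 entered the fit only through its 3'-propyl ABA libraries. TCH3, MPK3 and PUB22 were lower with all 3 compounds, and ERF4 and ZAT6 were higher with all 3. CAF1b, ERF2 and CML37 were called lower with 3'-butyl ABA alone, ZAT5 higher with 3'-butyl ABA alone, and ERF1A and ATL31 lower with ABA alone. ZAT11 and PUB23 were lower with 3'-butyl ABA and ABA, ATL6 and PUB24 lower with 3'-propyl ABA and ABA, and RRTF1, ZAT12 and CML38 had no call against DMSO. A call with 1 compound and not with another is no test of a difference between compounds.

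Several of these calls were lost when 1 library was left out. Without DMSO replicate 3 the 3'-butyl ABA calls of CAF1b, ERF2, CML37, AT4G27280, MPK3 and EXO were lost, and AT4G27280 had a log2 fold change of -0.61, against -0.93 with all libraries. Those of CAF1b, ERF2, CML37 and MPK3 were also lost without 3'-butyl ABA replicate 1, those of CAF1b, ERF2 and MPK3 without 3'-butyl ABA replicate 3, those of ERF2, MPK3 and AT4G27280 without 3'-butyl ABA replicate 2, and those of ERF2 and MPK3 without DMSO replicate 2. EXO kept its 3'-butyl ABA call without 3'-butyl ABA replicate 2, at -0.78 against -1.19. The ABA call of ERF1A was lost without ABA replicate 2 or 3 or DMSO replicate 3, and also when 3'-propyl ABA replicate 3 or any 3'-butyl ABA library was left out of the shared estimate of the spread. Its log2 fold change with ABA was -0.57 without ABA replicate 3 or DMSO replicate 3, against -0.89 with all libraries. The ABA call of SZF2 was lost without DMSO replicate 3 and kept at -0.34, against -0.53, without ABA replicate 3, and that of ERF104 was lost without DMSO replicate 1. The low 3'-propyl ABA calls of ATL6 and MPK3 were lost without 3'-propyl ABA replicate 1 or 3 or DMSO replicate 3, and that of ATL6 also without DMSO replicate 2, 3'-butyl ABA replicate 2 or any ABA library. With only the 6 libraries of a comparison in the fit, AT4G27280 with 3'-butyl ABA, ERF1A with ABA, and ATL6 and MPK3 with 3'-propyl ABA were not called.

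**Figure D2:**
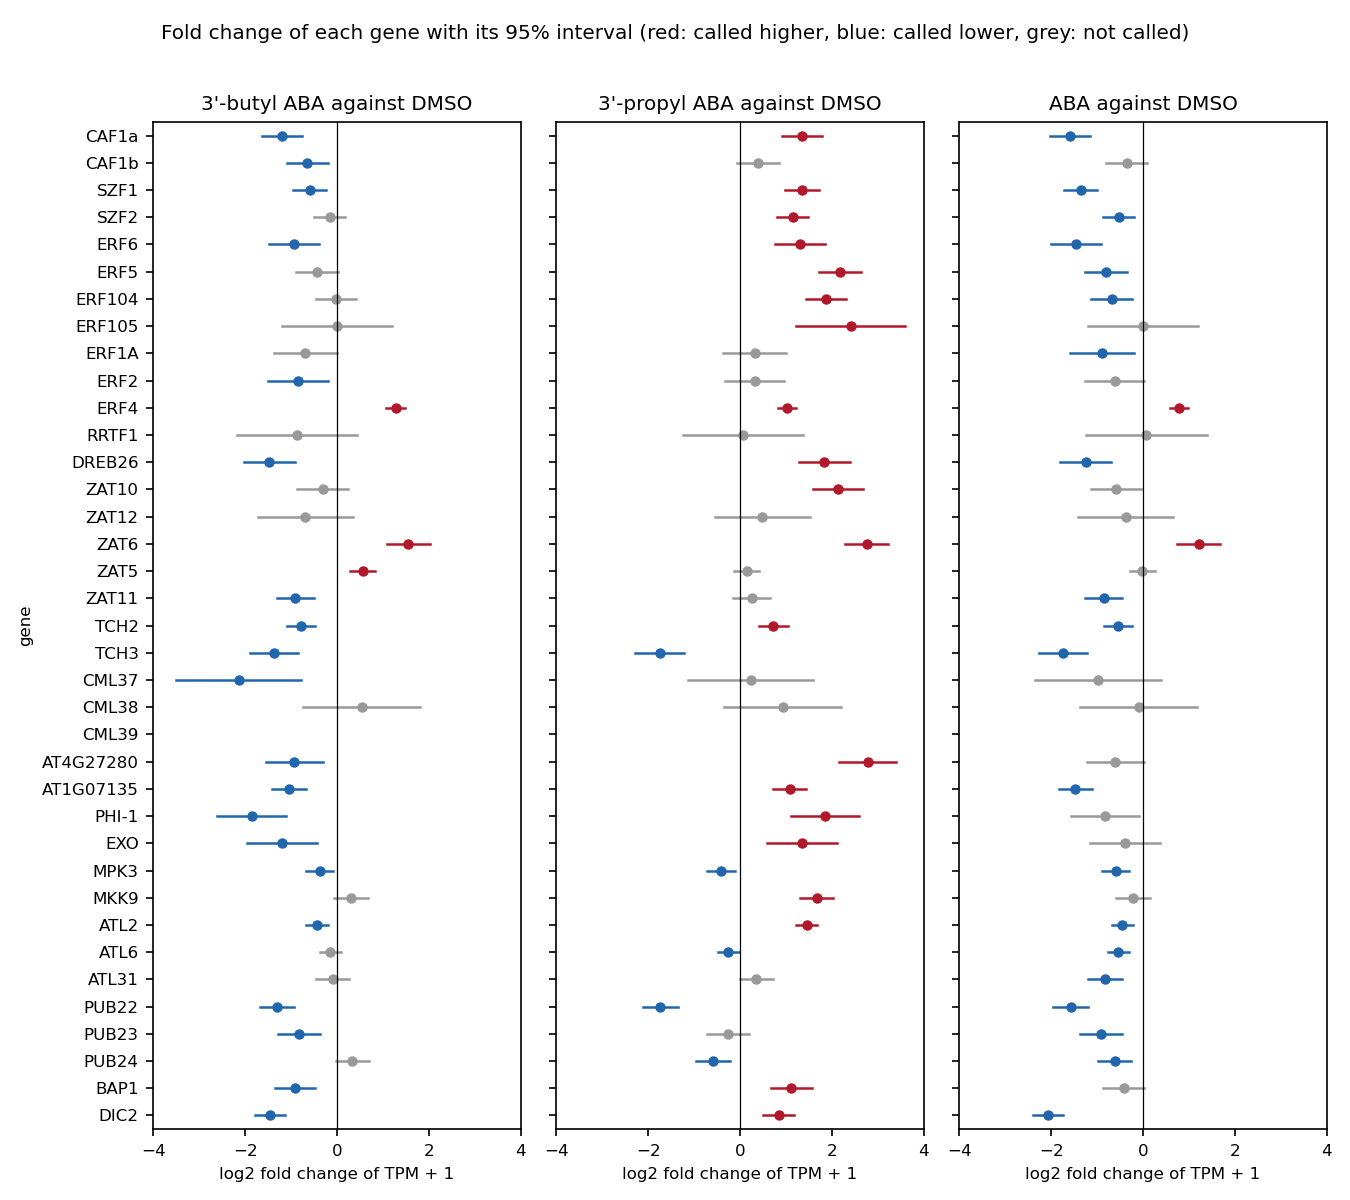
Points give the log2 fold change of TPM + 1 against DMSO of the 36 tested genes, in panels for 3'-butyl ABA, 3'-propyl ABA and ABA, and bars the 95% interval from the limma fit; CML39 has no point. Red, blue and grey mark genes called higher, called lower and not called: 20 points are red with 3'-propyl ABA, 3 with 3'-butyl ABA and 2 with ABA.

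Promoters of the genes were searched for elements of calcium, ABA, ERF and WRKY factors, in the window from 250 bases before to 50 bases after the annotated start, on both strands. The rapid stress response element CGCGTT, which contains the CGCG core, was found in 3 of the 37 windows (8.11%), against 3.71% of 19400 tested genes. These 3 belong to TCH2, PHI-1 and DIC2, and all 3 are among the 19 of 37 genes with every 3'-propyl ABA library above every other. No link between the element and that pattern was tested, and none can be read from 3 genes. The 250 bases before their starts are shown because they hold these matches, which are in capitals (AACGCG is CGCGTT on the other strand), read on the strand of the gene from TAIR10.1: TCH2 from chr5:14999620-14999869 (minus strand), PHI-1 from chr1:12851733-12851982 (plus strand) and DIC2 from chr4:12686209-12686458 (plus strand).
TCH2: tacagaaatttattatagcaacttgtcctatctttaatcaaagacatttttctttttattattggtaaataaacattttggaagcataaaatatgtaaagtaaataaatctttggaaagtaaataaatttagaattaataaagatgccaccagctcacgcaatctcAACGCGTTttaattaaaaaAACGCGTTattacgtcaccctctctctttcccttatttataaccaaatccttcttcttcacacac
PHI-1: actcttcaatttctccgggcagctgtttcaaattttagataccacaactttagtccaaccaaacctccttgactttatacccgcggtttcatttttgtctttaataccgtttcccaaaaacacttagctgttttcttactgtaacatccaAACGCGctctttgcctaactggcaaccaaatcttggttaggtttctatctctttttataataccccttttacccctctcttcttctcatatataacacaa
DIC2: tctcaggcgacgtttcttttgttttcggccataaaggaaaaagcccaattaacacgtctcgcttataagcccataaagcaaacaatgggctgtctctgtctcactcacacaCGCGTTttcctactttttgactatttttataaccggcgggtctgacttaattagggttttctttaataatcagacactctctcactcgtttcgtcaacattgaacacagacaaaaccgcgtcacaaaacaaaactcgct
The TCH2 promoter holds the palindrome AACGCGTT at 2 places, each of which counts as a match on both strands and gives 4 matches in all. The CGCG core alone was in 5 of 37 windows (13.5%), against 13.9% of all. The ABRE core ACGTG, the letters of the classical ABA-responsive element, was in 17 of 37 windows (45.9%), against 28.3% of all, in 6 of the 19 genes with 3'-propyl ABA above all other libraries and in 11 of the other 18. The promoter of ERF4, a gene that was higher with all 3 compounds, is shown because it holds the palindrome CACGTG, in capitals. That palindrome counts as 2 matches of the core. It also lay before the start of ERF1A, ATL31, PUB23 and PUB24, all called lower with ABA. ERF2, called lower with 3'-butyl ABA alone, and RRTF1, with no call against DMSO, held it there too. In ZAT10, ZAT6 and MKK9, called higher with 3'-propyl ABA, it lay after the start. The ERF4 promoter was read from chr3:5121053-5121302 (plus strand).
ERF4: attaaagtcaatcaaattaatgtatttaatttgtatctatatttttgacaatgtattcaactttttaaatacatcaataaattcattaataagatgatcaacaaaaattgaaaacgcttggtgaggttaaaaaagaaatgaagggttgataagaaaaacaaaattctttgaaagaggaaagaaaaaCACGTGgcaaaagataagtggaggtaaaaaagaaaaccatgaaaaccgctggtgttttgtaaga
The GCC box GCCGCC, to which ERF factors bind, was in 4 windows (10.8%, against 2.64% of all), those of ZAT10, ZAT6, MKK9 and PUB24. The W box core TTGAC, bound by WRKY factors, was in 26 (70.3%, against 50.8%). These shares describe letters in a short window and say nothing of which factor binds there.

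CAF1a and SZF1 were higher with 3'-propyl ABA and lower with the other compounds, while SZF2 was not called with 3'-butyl ABA and CAF1b was called lower there alone. CAF1a and CAF1b encode deadenylases, enzymes of the CCR4-NOT complex that shorten poly(A) tails, and SZF1 and SZF2 encode tandem CCCH zinc finger proteins that bind mRNA. CAF1a (AT3G44260) had 13.4, 12.1 and 12.6 TPM with 3'-butyl ABA, 67.2, 101 and 73.3 TPM with 3'-propyl ABA, 10.3, 10.1 and 8.09 TPM with ABA and 22.04, 31.3 and 40.2 TPM with DMSO. No 2 treatments overlapped: 3'-propyl ABA was highest, DMSO next, and ABA lay below 3'-butyl ABA. Its log2 fold change against DMSO (± SE, n = 3) was -1.20 ± 0.20 with 3'-butyl ABA, 1.36 ± 0.20 with 3'-propyl ABA and -1.59 ± 0.20 with ABA. SZF1 (AT3G55980) had 40.2, 42.6 and 41.5 TPM with 3'-butyl ABA, 137, 205 and 152 TPM with 3'-propyl ABA, 26.2, 27.2 and 19.4 TPM with ABA and 51.9, 67.8 and 71.1 TPM with DMSO. As for CAF1a, the 4 treatments did not overlap and stood in the order 3'-propyl ABA, DMSO, 3'-butyl ABA, ABA. Relative to DMSO, SZF1 had a log2 difference of -0.59 ± 0.17 with 3'-butyl ABA, 1.35 ± 0.17 with 3'-propyl ABA and -1.36 ± 0.17 with ABA. SZF2 (AT2G40140) had 44.3, 39.97 and 42.04 TPM with 3'-butyl ABA, 88.3, 125 and 106 TPM with 3'-propyl ABA, 37.5, 36.2 and 24.5 TPM with ABA and 45.8, 43.4 and 52.1 TPM with DMSO. SZF2, the paralogue of SZF1, had the same order of means, but 3'-butyl ABA and DMSO overlapped. The log2 fold changes of SZF2 against DMSO were -0.16 ± 0.16 with 3'-butyl ABA, 1.15 ± 0.16 with 3'-propyl ABA and -0.53 ± 0.16 with ABA. CAF1b (AT5G22250), the sister of CAF1a, had 5.45 to 7.57 TPM with 3'-butyl ABA, 12.5 to 16.5 with 3'-propyl ABA, 5.90 to 9.29 with ABA and 8.47 to 14.3 with DMSO. Among 18 other CAF1 and tandem zinc finger genes, of which 14 were tested, 7 rose and 2 fell with 3'-butyl ABA, 8 rose and 2 fell with 3'-propyl ABA, and 7 rose and 4 fell with ABA (2 fell without DMSO replicate 1 and ABA replicate 3). Of all tested genes, 25.1% were called higher and 25.6% lower with 3'-butyl ABA, and 27.5% and 38.5% with 3'-propyl ABA. With ABA these shares were 22% and 24.7%, and they stand beside the counts of every later list too. The median log2 fold changes of this list were 0.29 with 3'-butyl ABA, 0.62 with 3'-propyl ABA and 0.27 with ABA. OZF1, OZF2 and SOM, whose products bind RNA or act in seed germination and stress, rose with all 3 compounds by the limma fit: OZF1 by 4.12 ± 0.16 with 3'-butyl ABA, 3.75 ± 0.16 with 3'-propyl ABA and 3.23 ± 0.16 with ABA (log2 ± SE). SOM rose by 3.31 ± 0.17 with 3'-butyl ABA, 4.77 ± 0.17 with 3'-propyl ABA and 3.49 ± 0.17 with ABA.

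Of the 9 ERF and DREB genes, ERF5, ERF6, ERF104, ERF105 and DREB26 were called higher with 3'-propyl ABA. ERF4 was called higher with all 3 compounds, and ERF1A, ERF2 and RRTF1 were not called with 3'-propyl ABA. Nothing is read from the ERF105 call, as that gene entered the fit only through its 3'-propyl ABA libraries. ERF5, ERF6, ERF104 and ERF105 encode closely related activators, and the ERF6 and ERF104 proteins are substrates of MAP kinases. ERF5 (AT5G47230) had 6.05, 4.38 and 4.63 TPM with 3'-butyl ABA, 31.5, 45.03 and 32.5 TPM with 3'-propyl ABA, 4.55, 4.49 and 2.33 TPM with ABA and 6.39, 8.61 and 6.53 TPM with DMSO. The 3'-propyl ABA libraries lay above every other library, and 3'-butyl ABA and ABA overlapped. Against DMSO ERF5 differed by -0.44 ± 0.21 with 3'-butyl ABA, 2.18 ± 0.21 with 3'-propyl ABA and -0.80 ± 0.21 with ABA (log2 ± SE). ERF6 (AT4G17490) had 6.27, 6.24 and 7.77 TPM with 3'-butyl ABA, 27.7, 57.2 and 28.3 TPM with 3'-propyl ABA, 4.75, 5.04 and 3.45 TPM with ABA and 11.4, 16.5 and 13.7 TPM with DMSO. All 4 treatments were apart, with DMSO above 3'-butyl ABA and ABA lowest. ERF6 had log2 fold changes of -0.93 ± 0.25 with 3'-butyl ABA, 1.31 ± 0.25 with 3'-propyl ABA and -1.45 ± 0.25 with ABA against DMSO. ERF104 (AT5G61600) had 23.1, 17.1 and 19.2 TPM with 3'-butyl ABA, 64.8, 91.6 and 72.6 TPM with 3'-propyl ABA, 15.5, 12.7 and 8.72 TPM with ABA and 23.3, 16.3 and 20.8 TPM with DMSO. Here 3'-butyl ABA and DMSO overlapped and ABA was lowest. Relative to DMSO, ERF104 had a log2 difference of -0.02 ± 0.20 with 3'-butyl ABA, 1.87 ± 0.20 with 3'-propyl ABA and -0.69 ± 0.20 with ABA. ERF105 (AT5G51190) was listed at 0 in all 9 libraries of 3'-butyl ABA, ABA and DMSO and had 4.03, 14.7 and 0.913 TPM with 3'-propyl ABA, an estimated 23, 88 and 6 reads. The 3'-propyl ABA libraries of ERF105 differ more among themselves than those of its relatives, and no fold is given against a group listed at 0.

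DREB26 (AT1G21910) had 6.45, 5.54 and 5.36 TPM with 3'-butyl ABA, 47.7, 84.7 and 70.9 TPM with 3'-propyl ABA, 7.92, 6.08 and 6.81 TPM with ABA and 11.6, 19.3 and 24.7 TPM with DMSO. DREB26 encodes a factor of the DREB family, and its 3'-propyl ABA libraries lay far above the others while 3'-butyl ABA and ABA overlapped below DMSO. The log2 fold changes of DREB26 against DMSO were -1.47 ± 0.25 with 3'-butyl ABA, 1.84 ± 0.25 with 3'-propyl ABA and -1.25 ± 0.25 with ABA. ERF4 (AT3G15210) had 199, 186 and 174 TPM with 3'-butyl ABA, 152, 173 and 141 TPM with 3'-propyl ABA, 119, 146 and 131 TPM with ABA and 79.6, 73.9 and 74.3 TPM with DMSO. ERF4 encodes a repressor of GCC-box genes, and its DMSO libraries were the lowest of all, with 3'-butyl ABA apart above 3'-propyl ABA. Against DMSO ERF4 differed by 1.28 ± 0.09 with 3'-butyl ABA, 1.02 ± 0.09 with 3'-propyl ABA and 0.79 ± 0.09 with ABA (log2 ± SE). ERF4 alone among the ERF genes of the set had its highest mean with 3'-butyl ABA, and the difference between 3'-butyl ABA and 3'-propyl ABA, 0.26 ± 0.09, was not called after median-of-ratios scaling. ERF1A and ERF2 encode activators of GCC-box genes. ERF1A (AT4G17500) had 28.1 to 32.8 TPM with 3'-butyl ABA, 53.7 to 77.97 with 3'-propyl ABA, 16.8 to 36.2 with ABA and 38.6 to 78.6 with DMSO. ERF2 (AT5G47220) had 15.03 to 16.5 TPM with 3'-butyl ABA, 27.6 to 50.9 with 3'-propyl ABA, 13.8 to 23.2 with ABA and 19.1 to 42.8 with DMSO. In both genes 3'-propyl ABA lay above 3'-butyl ABA and ABA and overlapped DMSO. RRTF1 (AT4G34410), a redox-responsive factor gene, had 0.301 to 0.762 TPM with 3'-butyl ABA, 1.28 to 3.17 with 3'-propyl ABA, 0.460 to 3.89 with ABA and 0.376 to 6.57 with DMSO, and the treatments overlapped except 3'-butyl ABA and 3'-propyl ABA. Of 12 tested ERF genes of the same groups outside the set, 3 rose and 4 fell with 3'-butyl ABA, beside 25.1% and 25.6% of all tested genes. With 3'-propyl ABA 5 rose and 5 fell, beside 27.5% and 38.5%, and with ABA 3 rose and 5 fell, beside 22% and 24.7%. ORA59, an activator of jasmonate and ethylene defence genes, fell with all 3 compounds, by 1.66 ± 0.23 with 3'-butyl ABA, 3.47 ± 0.23 with 3'-propyl ABA and 1.87 ± 0.23 with ABA (log2 ± SE, limma), and ERF11, a repressor, rose by 1.57 ± 0.26 with 3'-propyl ABA. Of 8 tested CBF and DREB26-like genes, 4 rose and 1 fell with 3'-butyl ABA, 4 rose and 1 fell with 3'-propyl ABA, and 2 rose with ABA. CBF3, a cold-response factor, rose by 3.51 ± 0.22 with 3'-butyl ABA, 3.08 ± 0.22 with 3'-propyl ABA and 2.97 ± 0.22 with ABA.

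Of the ZAT genes, which encode C2H2 zinc finger factors with a repression motif, ZAT10 followed the 3'-propyl ABA pattern and ZAT6 was above DMSO with every compound. ZAT10 (AT1G27730) had 22.7, 25.6 and 23.7 TPM with 3'-butyl ABA, 113, 168 and 132 TPM with 3'-propyl ABA, 20.2, 25.5 and 14.6 TPM with ABA and 22.2, 27.8 and 43.5 TPM with DMSO. The 3'-propyl ABA libraries lay above every other library, while the other 3 treatments overlapped. ZAT10 had log2 fold changes of -0.31 ± 0.25 with 3'-butyl ABA, 2.14 ± 0.25 with 3'-propyl ABA and -0.59 ± 0.25 with ABA against DMSO. ZAT6 (AT5G04340) had 41.6, 33.8 and 27.7 TPM with 3'-butyl ABA, 72.5, 76.1 and 90.99 TPM with 3'-propyl ABA, 34.5, 30.7 and 17.7 TPM with ABA and 10.8, 11.2 and 10.6 TPM with DMSO. ZAT6 was apart from DMSO with every compound, 3'-butyl ABA and ABA overlapped, and 3'-propyl ABA was highest. Relative to DMSO, ZAT6 had a log2 difference of 1.56 ± 0.21 with 3'-butyl ABA, 2.76 ± 0.21 with 3'-propyl ABA and 1.22 ± 0.21 with ABA. ZAT11 (AT2G37430) had 0.357 to 0.481 TPM with 3'-butyl ABA, 1.87 to 2.52 with 3'-propyl ABA, 0.307 to 0.678 with ABA and 1.34 to 2.36 with DMSO, an estimated 2 to 17 reads per library. ZAT12 (AT5G59820), a gene of oxidative stress, had 10.5 to 11.7 TPM with 3'-butyl ABA, 22.7 to 30.1 with 3'-propyl ABA, 7.96 to 18.9 with ABA and 9.60 to 43.1 with DMSO, and the DMSO libraries spread so widely that they overlapped every other treatment. ZAT5 (AT2G28200) had 9.72 to 12.2 TPM with 3'-butyl ABA, 7.56 to 8.41 with 3'-propyl ABA, 6.01 to 8.48 with ABA and 6.74 to 7.46 with DMSO, with 3'-butyl ABA above all others. Of 7 tested ZAT and AZF genes outside the set, 1 rose and 4 fell with 3'-butyl ABA, 1 rose and 2 fell with 3'-propyl ABA, and 1 rose and 3 fell with ABA. The gene that rose in each comparison was AZF2, a zinc finger repressor, by 2.55 ± 0.25 with 3'-butyl ABA, 3.42 ± 0.25 with 3'-propyl ABA and 2.34 ± 0.25 with ABA, and AZF1 fell by 1.91 ± 0.18 with 3'-propyl ABA and 1.65 ± 0.18 with ABA (log2 ± SE, limma).

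The calcium sensor genes did not move together, although TCH2 and TCH3 were both first known as touch genes. TCH2 (AT5G37770) had 22.5, 20.98 and 22.97 TPM with 3'-butyl ABA, 53.9, 83.3 and 61.4 TPM with 3'-propyl ABA, 24.02, 25.5 and 29.8 TPM with ABA and 34, 41.8 and 41.4 TPM with DMSO. The 4 treatments did not overlap, with 3'-propyl ABA highest and 3'-butyl ABA lowest. The log2 fold changes of TCH2 against DMSO were -0.79 ± 0.14 with 3'-butyl ABA, 0.73 ± 0.14 with 3'-propyl ABA and -0.55 ± 0.14 with ABA. TCH3 (AT2G41100) had 49.6, 42.9 and 49.2 TPM with 3'-butyl ABA, 32.9, 47.03 and 30.01 TPM with 3'-propyl ABA, 43.7, 40.6 and 26.3 TPM with ABA and 91.2, 130.2 and 158 TPM with DMSO. TCH3, which encodes a calmodulin-like protein with repeated EF hands, had its DMSO libraries above all others and 3'-butyl ABA, 3'-propyl ABA and ABA overlapping. Against DMSO TCH3 differed by -1.37 ± 0.24 with 3'-butyl ABA, -1.75 ± 0.24 with 3'-propyl ABA and -1.75 ± 0.24 with ABA (log2 ± SE). AT4G27280 had 14.6, 7.72 and 11.99 TPM with 3'-butyl ABA, 138, 189 and 148 TPM with 3'-propyl ABA, 15.3, 15.9 and 11.6 TPM with ABA and 16.4, 18.7 and 34.4 TPM with DMSO. AT4G27280 encodes a small EF-hand protein, and its 3'-propyl ABA libraries lay far above all others while 3'-butyl ABA and ABA overlapped below DMSO. AT4G27280 had log2 fold changes of -0.93 ± 0.28 with 3'-butyl ABA, 2.78 ± 0.28 with 3'-propyl ABA and -0.60 ± 0.28 with ABA against DMSO. The 3'-butyl ABA call was lost without DMSO replicate 3, at -0.61, or without 3'-butyl ABA replicate 2, at -0.69. CML37 (AT5G42380) had 1.10, 1.01 and 3.18 TPM with 3'-butyl ABA, 17.1, 8.58 and 13.1 TPM with 3'-propyl ABA, 9.25, 7.20 and 1.39 TPM with ABA and 6.06, 7.68 and 23.7 TPM with DMSO. CML37 is a calmodulin-like gene of wound and herbivore responses, and 3'-butyl ABA lay below 3'-propyl ABA and DMSO with no overlap while ABA overlapped every other treatment. Relative to DMSO, CML37 had a log2 difference of -2.14 ± 0.61 with 3'-butyl ABA, 0.23 ± 0.61 with 3'-propyl ABA and -0.97 ± 0.61 with ABA. CML38 (AT1G76650), induced by hypoxia and wounding, had 30.4 to 59.5 TPM with 3'-butyl ABA, 43.6 to 62.3 with 3'-propyl ABA, 7.70 to 49.3 with ABA and 20.2 to 38.7 with DMSO. The lowest library was ABA replicate 3. Without that library its ABA value against DMSO was 0.70 on the log2 scale, against -0.09 with it. Its neighbour CML39, 883 bases away on the same strand, was at an estimated 0 to 12 reads per library.

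Among 22 tested calmodulin and CML genes outside the set, 1 rose and 9 fell with 3'-butyl ABA, 8 rose and 7 fell with 3'-propyl ABA, and 3 rose and 8 fell with ABA. The median log2 fold changes were -0.49 with 3'-butyl ABA, 0.27 with 3'-propyl ABA and -0.33 with ABA. CML23 is the close relative of TCH2. CML23 (AT1G66400) had 4.99, 3.71 and 3.86 TPM with 3'-butyl ABA, 19.4, 23.4 and 23.9 TPM with 3'-propyl ABA, 5.48, 5.99 and 5.23 TPM with ABA and 6.12, 4.41 and 3.89 TPM with DMSO. It rose by 2.01 ± 0.15 with 3'-propyl ABA (log2 ± SE, limma), and DMSO overlapped both 3'-butyl ABA and ABA. CML42 (AT4G20780) had 8.04, 7.80 and 7.99 TPM with 3'-butyl ABA, 1.89, 1.15 and 0.748 TPM with 3'-propyl ABA, 5.30, 4.12 and 4.71 TPM with ABA and 32.6, 29.8 and 34.5 TPM with DMSO. CML42, a gene of trichome branching and herbivory, was highest with DMSO and lowest with 3'-propyl ABA, with no overlap between treatments. It fell by 1.89 ± 0.16 with 3'-butyl ABA, 3.91 ± 0.16 with 3'-propyl ABA and 2.55 ± 0.16 with ABA.

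**Figure D3:**
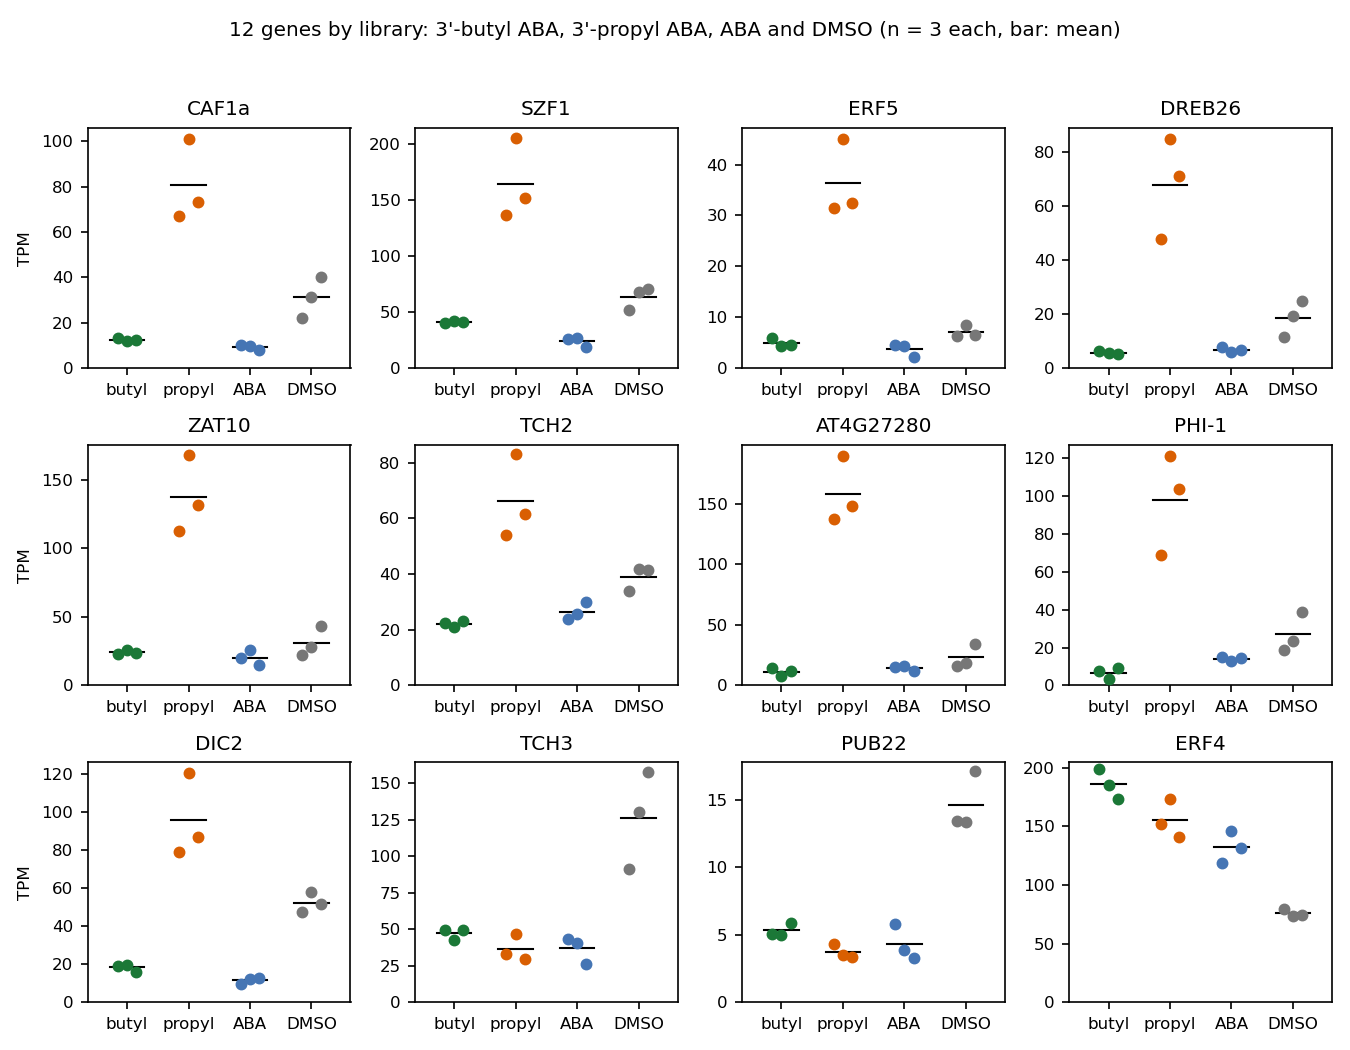
Each panel plots TPM of 1 gene in every library (points) and the mean of 3 libraries (bar) for 3'-butyl ABA, 3'-propyl ABA, ABA and DMSO, on axes that start at 0. The 3'-propyl ABA points lie above all others in the panels from CAF1a to DIC2, while TCH3 and PUB22 are highest with DMSO and ERF4 with 3'-butyl ABA.

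The 3 genes of cell wall and secreted proteins were higher with 3'-propyl ABA and lower with 3'-butyl ABA. PHI-1 and EXO encode EXORDIUM family proteins of the cell wall, which respond to phosphate and brassinosteroid in growing cells, and AT1G07135 encodes a glycine-rich protein. PHI-1 (AT1G35140) had 7.63, 3.55 and 9.26 TPM with 3'-butyl ABA, 69.02, 121 and 104 TPM with 3'-propyl ABA, 14.9, 13.2 and 14.3 TPM with ABA and 18.5, 23.7 and 38.7 TPM with DMSO. All 4 treatments were apart, and 3'-butyl ABA was lowest. The log2 fold changes of PHI-1 against DMSO were -1.86 ± 0.34 with 3'-butyl ABA, 1.85 ± 0.34 with 3'-propyl ABA and -0.83 ± 0.34 with ABA. EXO (AT4G08950) had 49.1, 18.7 and 41.9 TPM with 3'-butyl ABA, 151, 258 and 214 TPM with 3'-propyl ABA, 74.5, 48.9 and 58.97 TPM with ABA and 64.7, 76.5 and 98.7 TPM with DMSO. The 3'-propyl ABA libraries lay above every other library, while DMSO overlapped ABA and ABA overlapped 3'-butyl ABA. Against DMSO EXO differed by -1.19 ± 0.34 with 3'-butyl ABA, 1.36 ± 0.34 with 3'-propyl ABA and -0.39 ± 0.34 with ABA (log2 ± SE). AT1G07135 had 37.1, 42.6 and 41.5 TPM with 3'-butyl ABA, 157, 223 and 165 TPM with 3'-propyl ABA, 31.97, 32.7 and 25.1 TPM with ABA and 66.7, 90.3 and 99.9 TPM with DMSO. The treatments stood apart in the order 3'-propyl ABA, DMSO, 3'-butyl ABA, ABA. AT1G07135 had log2 fold changes of -1.05 ± 0.17 with 3'-butyl ABA, 1.08 ± 0.17 with 3'-propyl ABA and -1.48 ± 0.17 with ABA against DMSO. Of 5 tested EXORDIUM family genes outside the set, 3 rose and 1 fell with 3'-butyl ABA, 3 rose and 2 fell with 3'-propyl ABA, and 2 rose with ABA. EXL2 rose with all 3 compounds, by 1.71 ± 0.16 with 3'-butyl ABA, 2.19 ± 0.16 with 3'-propyl ABA and 1.59 ± 0.16 with ABA (log2 ± SE, limma), where PHI-1 and EXO were below DMSO with 3'-butyl ABA.

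In the MAP kinase cascade the kinase kinase gene and the kinase gene differed. MKK9 (AT1G73500) had 25.2, 19.9 and 21.1 TPM with 3'-butyl ABA, 55.4, 60.4 and 57.1 TPM with 3'-propyl ABA, 17.6, 15.9 and 11.8 TPM with ABA and 14.1, 16.5 and 22.8 TPM with DMSO. MKK9 encodes an activator of MPK3 and MPK6, and its 3'-propyl ABA libraries lay above all others while DMSO overlapped both 3'-butyl ABA and ABA. Relative to DMSO, MKK9 had a log2 difference of 0.31 ± 0.17 with 3'-butyl ABA, 1.67 ± 0.17 with 3'-propyl ABA and -0.21 ± 0.17 with ABA. MPK3 (AT3G45640) had 48.7, 47.3 and 47.1 TPM with 3'-butyl ABA, 39.9, 62.2 and 40.6 TPM with 3'-propyl ABA, 41.7, 42.4 and 38.9 TPM with ABA and 58.4, 60.2 and 68.8 TPM with DMSO. The DMSO libraries of MPK3, a central kinase of wound and elicitor signalling, were the highest except for 3'-propyl ABA replicate 2. The log2 fold changes of MPK3 against DMSO were -0.38 ± 0.14 with 3'-butyl ABA, -0.41 ± 0.14 with 3'-propyl ABA and -0.59 ± 0.14 with ABA. Without that library the value with 3'-propyl ABA was -0.62. Of 11 tested genes of the cascade outside the set, 3 rose and 3 fell with 3'-butyl ABA, 4 rose and 1 fell with 3'-propyl ABA, and 1 rose and 2 fell with ABA. With median-of-ratios scaling 7 rose with 3'-propyl ABA, and without DMSO replicate 1 and ABA replicate 3, 5 rose with 3'-butyl ABA and 2 with ABA. MPK7 rose by 0.86 ± 0.09 with 3'-butyl ABA, 2.02 ± 0.09 with 3'-propyl ABA and 1.02 ± 0.09 with ABA, and MPK11 rose by 1.40 ± 0.29 with 3'-propyl ABA (log2 ± SE, limma).

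The ubiquitin ligase genes were lower with ABA, and ATL2 alone among the 6 was called higher with 3'-propyl ABA. ATL2 (AT3G16720) had 12.1, 11.7 and 13.3 TPM with 3'-butyl ABA, 42.3, 58.3 and 45.9 TPM with 3'-propyl ABA, 11.8, 12.7 and 12.1 TPM with ABA and 16.7, 16.5 and 17.9 TPM with DMSO. ATL2 encodes a membrane RING-H2 ligase induced by chitin, and 3'-butyl ABA and ABA overlapped below DMSO. Against DMSO ATL2 differed by -0.43 ± 0.11 with 3'-butyl ABA, 1.45 ± 0.11 with 3'-propyl ABA and -0.45 ± 0.11 with ABA (log2 ± SE). PUB22 (AT3G52450) had 5.09, 4.99 and 5.91 TPM with 3'-butyl ABA, 4.29, 3.48 and 3.32 TPM with 3'-propyl ABA, 5.82, 3.89 and 3.26 TPM with ABA and 13.4, 13.4 and 17.1 TPM with DMSO. PUB22, a U-box ligase gene that dampens immune signalling together with PUB23 and PUB24, had its DMSO libraries above all others. PUB22 had log2 fold changes of -1.30 ± 0.17 with 3'-butyl ABA, -1.73 ± 0.17 with 3'-propyl ABA and -1.58 ± 0.17 with ABA against DMSO. PUB23 (AT2G35930) had 8.95 to 13.1 TPM with 3'-butyl ABA, 15.6 to 18.9 with 3'-propyl ABA, 7.01 to 12.96 with ABA and 17.96 to 23.9 with DMSO. PUB24 (AT3G11840) had 7.40 to 8.79 TPM with 3'-butyl ABA, 3.30 to 4.07 with 3'-propyl ABA, 2.91 to 4.59 with ABA and 5.23 to 7.90 with DMSO, so here 3'-butyl ABA and not 3'-propyl ABA was highest. ATL6 and ATL31, ligases of the carbon to nitrogen response, were lowest with ABA. ATL6 (AT3G05200) had 27.7 to 33.8 TPM with 3'-butyl ABA, 24.9 to 31 with 3'-propyl ABA, 22.6 to 23.01 with ABA and 29.8 to 38.03 with DMSO. ATL31 (AT5G27420) had 8.59 to 10.8 TPM with 3'-butyl ABA, 12.8 to 15 with 3'-propyl ABA, 4.54 to 6.26 with ABA and 8.23 to 13.7 with DMSO. Of 20 tested ATL and PUB genes outside the set, 4 rose and 7 fell with 3'-butyl ABA, 9 rose and 3 fell with 3'-propyl ABA, and 3 rose and 7 fell with ABA. PUB19 (AT1G60190) had 209.9, 168 and 132 TPM with 3'-butyl ABA, 94.3, 98.8 and 91.2 TPM with 3'-propyl ABA, 72.3, 92.6 and 92.8 TPM with ABA and 1.62, 0.592 and 1.13 TPM with DMSO. PUB19 is a ligase gene of the drought response, and its DMSO libraries were the lowest. It rose by 6.34 ± 0.19 with 3'-butyl ABA, 5.53 ± 0.19 with 3'-propyl ABA and 5.38 ± 0.19 with ABA (log2 ± SE, limma), unlike PUB22.

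DIC2, which encodes a mitochondrial dicarboxylate carrier, and BAP1, which encodes a membrane-bound C2-domain protein that restrains defence, were both higher with 3'-propyl ABA and lower with 3'-butyl ABA. DIC2 (AT4G24570) had 19.4, 19.95 and 16.2 TPM with 3'-butyl ABA, 79.2, 121 and 87.3 TPM with 3'-propyl ABA, 9.94, 12.4 and 12.97 TPM with ABA and 47.4, 58.04 and 51.7 TPM with DMSO. The 4 treatments were apart, in the order 3'-propyl ABA, DMSO, 3'-butyl ABA, ABA. Relative to DMSO, DIC2 had a log2 difference of -1.45 ± 0.15 with 3'-butyl ABA, 0.84 ± 0.15 with 3'-propyl ABA and -2.07 ± 0.15 with ABA. BAP1 (AT3G61190) had 1.92, 2.28 and 2.05 TPM with 3'-butyl ABA, 9.77, 14.1 and 11.3 TPM with 3'-propyl ABA, 3.61, 4.39 and 2.28 TPM with ABA and 4.37, 4.00 and 6.29 TPM with DMSO. All 3'-propyl ABA libraries were above the others, DMSO and ABA overlapped, and 3'-butyl ABA and ABA overlapped. The log2 fold changes of BAP1 against DMSO were -0.92 ± 0.20 with 3'-butyl ABA, 1.12 ± 0.20 with 3'-propyl ABA and -0.42 ± 0.20 with ABA. The sister carrier genes DIC1 and DIC3 rose with 3'-propyl ABA, by 1.97 ± 0.18 and 2.98 ± 0.26 (log2 ± SE, limma), and DIC3 also rose with ABA, by 1.15 ± 0.26. DIC1 (AT2G22500) had 38.4, 41.8 and 43.2 TPM with 3'-butyl ABA, 154, 215 and 195 TPM with 3'-propyl ABA, 42.6, 51.2 and 63.1 TPM with ABA and 36.5, 49.5 and 56.8 TPM with DMSO. The 3'-butyl ABA and ABA libraries of DIC1 overlapped DMSO, where those of DIC2 lay below it.

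The 3 compounds were given at the same dose and for the same time, so they can be compared directly. Of the 36 tested genes, 3 were called higher and 26 lower with 3'-butyl ABA than with 3'-propyl ABA, beside 31.2% and 17.6% of all tested genes, with a median of -1.33 against 0.13 over all genes. The 26 lower genes include ERF105 and ZAT11, which entered the fit through their 3'-propyl ABA libraries, so nothing is read from their calls. The 3 higher genes were ERF4, ZAT5 and PUB24; after median-of-ratios scaling 1 of them, PUB24, was called, and without DMSO replicate 1 and ABA replicate 3 there were 5, with TCH3 and PUB22. By libraries that did not overlap, 4 were higher and 28 lower, ERF105 and ZAT11 among the lower (39.8% and 22.1% of all genes). PHI-1 differed most, together with AT4G27280: both had a log2 difference of -3.71, with SE 0.34 for PHI-1 and 0.28 for AT4G27280. Between 3'-propyl ABA and ABA, 26 genes were called higher and 0 lower by limma, beside 15.5% and 26.4% of all tested genes, and at an unadjusted p under 0.05 the counts were 27 and 0. Libraries did not overlap for 27 higher and 0 lower, beside 19.5% and 31.9% of all genes. ERF105 and ZAT11 are among the higher genes in each of these counts against ABA, with the same limit. After median-of-ratios scaling 54.4% of the genes called in this comparison over the whole table were higher with 3'-propyl ABA, against 37% without it, and for 3'-butyl ABA against 3'-propyl ABA the share higher was 46.5% with it (52.2% with quantile normalization) and 64% without.

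Between 3'-butyl ABA and ABA 4 of the 36 genes were called higher and 0 lower, beside 0.819% and 0.783% of all tested genes. At an unadjusted p under 0.05 the counts were 11 and 3, and libraries did not overlap for 14 higher and 2 lower, beside 13.6% and 12.2% of all genes. The 4 genes were SZF1 at 0.76 ± 0.17, ERF4 at 0.49 ± 0.09, ZAT5 at 0.57 ± 0.13 and PUB24 at 0.95 ± 0.17 on the log2 scale. They were no longer called, 0 in each case, without 3'-butyl ABA replicate 1, 2 or 3 or without ABA replicate 3, and 2 were called without 3'-propyl ABA replicate 3 or without DMSO replicate 2. For the 32 other genes the missing call does not show that the compounds acted alike: the median half-width of a 95% interval was 0.44 on the log2 scale. ATL2 differed by 0.02 with an interval of -0.22 to 0.25, while PHI-1 had 7.63, 3.55 and 9.26 TPM with 3'-butyl ABA and 14.9, 13.2 and 14.3 TPM with ABA and an interval of -1.77 to -0.28.

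Touch, wound and elicitor genes outside the set were examined as a list of 23 genes. They were picked by known role but with earlier results of these data known, so the list is no independent check. With 3'-propyl ABA 12 rose and 3 fell against DMSO, beside 27.5% and 38.5% of all tested genes. The median of the list was 0.55 on the log2 scale. With 3'-butyl ABA 1 rose and 8 fell (25.1% and 25.6% of all tested genes), with a median of -0.46. With ABA 3 rose and 8 fell (22% and 24.7%), with a median of -0.45. TCH4 encodes a xyloglucan-modifying enzyme of the cell wall and is a classical touch gene. TCH4 (AT5G57560) had 42.9, 26.6 and 38.1 TPM with 3'-butyl ABA, 499, 706 and 579.5 TPM with 3'-propyl ABA, 67.9, 60.3 and 50.8 TPM with ABA and 94.6, 105 and 187 TPM with DMSO. The treatments did not overlap. TCH4 fell by 1.77 ± 0.26 with 3'-butyl ABA and by 1.04 ± 0.26 with ABA and rose by 2.25 ± 0.26 with 3'-propyl ABA (log2 ± SE, limma). WRKY33, a factor of defence against fungi, rose by 1.45 ± 0.19 with 3'-propyl ABA, and JAZ7, a jasmonate repressor gene, by 1.72 ± 0.39. WRKY18, a defence repressor, fell by 1.05 ± 0.22 with 3'-butyl ABA and 1.48 ± 0.22 with ABA, and SYP122, a syntaxin gene of the plasma membrane, by 1.04 ± 0.23 with 3'-butyl ABA and 1.24 ± 0.23 with ABA. Compared directly, 1 gene of the list was higher and 15 were lower with 3'-butyl ABA than with 3'-propyl ABA, beside 31.2% and 17.6% of all tested genes. With 3'-propyl ABA 14 were higher and 2 lower than with ABA, beside 15.5% and 26.4%. Between 3'-butyl ABA and ABA 0 were called, beside 0.819% higher and 0.783% lower of all tested genes, so the 0 says little of the list. At an unadjusted limma p under 0.05, 2 were higher and 4 lower there. Without DMSO replicate 1 and ABA replicate 3, 11 rose and 5 fell with 3'-propyl ABA, 1 rose and 15 fell with 3'-butyl ABA, and 1 rose and 11 fell with ABA.

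**Figure D4:**
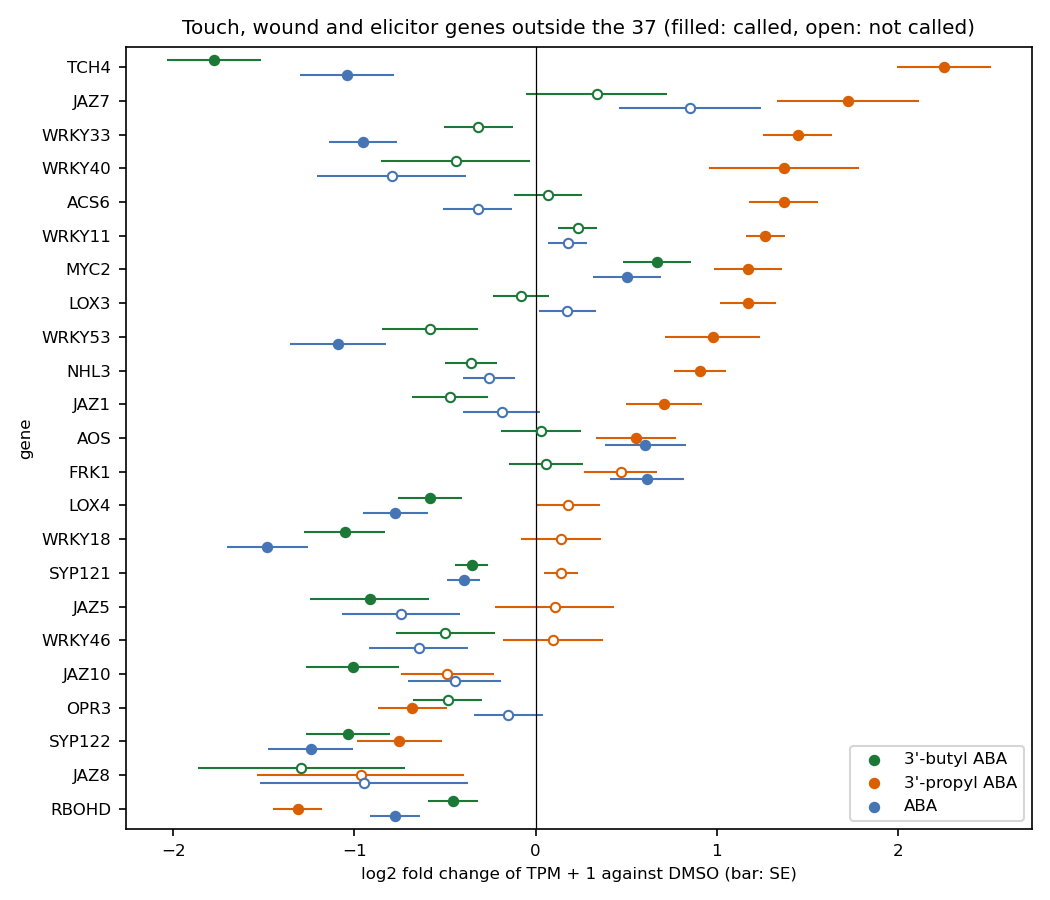
Points give the log2 fold change of TPM + 1 against DMSO of 23 touch, wound and elicitor genes outside the set, with the SE as a bar, for 3'-butyl ABA, 3'-propyl ABA and ABA. Filled points are called: 15 with 3'-propyl ABA, of which 12 are higher, 9 with 3'-butyl ABA, of which 8 are lower, and 11 with ABA, of which 8 are lower.

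Replicates of a treatment differed more for the 37 genes than for all tested genes, and least so with 3'-butyl ABA. The median SD of log2(TPM + 1) within a treatment was 0.118 with 3'-butyl ABA, 0.262 with 3'-propyl ABA, 0.269 with ABA and 0.286 with DMSO for the set. For all tested genes it was 0.102 with 3'-butyl ABA, 0.132 with 3'-propyl ABA, 0.135 with ABA and 0.132 with DMSO. The differences ran in the same direction for most genes. Within 3'-propyl ABA, replicate 2 was the highest library for 27 of 36 genes (38.5% of all tested genes), within ABA replicate 3 was the lowest for 26 (44.6%), and within DMSO replicate 3 was the highest for 25 (33.7%). The mean log2(TPM + 1) over the 37 genes was 3.74, 3.58 and 3.75 with 3'-butyl ABA, 4.96, 5.28 and 4.98 with 3'-propyl ABA, 3.75, 3.74 and 3.26 with ABA, and 4.02, 4.16 and 4.58 with DMSO. The libraries of 3'-propyl ABA and DMSO did not overlap with each other or with those of the other compounds on this scale. The same libraries stood out for the 23 touch, wound and elicitor genes outside the set: 3'-propyl ABA replicate 2 was highest within its treatment for 19 of 23, ABA replicate 3 lowest for 16 and DMSO replicate 3 highest for 19. That list, too, was chosen with earlier results of these data known, so it is no independent check. The labels do not say whether replicates were separate cultures, so the errors given are those between these libraries.

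Most of the 37 genes share a simple gene structure. The rule for choosing them named gene families and roles but not exons. Exons of other genes of those families were not counted, so this trait cannot be told apart from the choice of families. In the TAIR10.1 annotation 30 of 37 (81.1%) had 1 exon in their longest transcript, against 15.9% of 19401 tested genes. Their median transcript was 1339 bases long, against 1729. Exceptions with more than 1 exon were SZF1, SZF2, TCH2, TCH3, MPK3, PUB24 and BAP1, with MPK3 at 6 exons. The genes lie on all 5 chromosomes, with 7, 5, 9, 6 and 10 on chromosomes 1 to 5, and ERF6 and ERF1A are 5041 bases apart on opposite strands. No gene of the set shares a stretch of 100 bases, the read length, with a transcript of another gene, so paralogues such as ERF5 and ERF6 could be told apart by reads of that length.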

How the data were processed

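The values are gene-level TPM, deposited by the authors as 1 table per treatment with 3 libraries each and scaled within each library, so that the 4 tables were joined; per the labels, mRNA was read as paired reads of 100 bases. Reads were converted with bcl2fastq and the build was TAIR10, per the submitters' processing notes. No aligner or counter is stated there. TPM is no count, so no count model was used. Values were analysed as log2(TPM + 1), a pseudocount that understates changes of low genes. Genes with a mean under 1 TPM over the 12 libraries were left out, and 19528 of 27655 were fitted in 1 limma model of all 12 libraries (limma 3.58.1, R 4.3.3, Python 3.11.15) with 6 contrasts and Benjamini-Hochberg adjustment over all genes fitted; a call is an adjusted p under 0.05. The procedure was tried on simulated data with the same dispersion for every gene and no shifts shared by the genes of a library. The 37 genes spread more between replicates than most genes, so that trial does not test their calls. The 37 genes and the comparison lists (166 genes in 12 lists, and 5 lists of cell type markers) were chosen with earlier results of these data known. Genes given with every library are, per role, the 2 with the largest range of treatment means, and any called in opposite directions against DMSO. ERF4, ERF105 and TCH3 were added after their values were seen. Genes named from a list are among the up to 3 called genes with the largest change per comparison with DMSO, and not all of those are named. Promoters and gene models were read from the RefSeq annotation of TAIR10.1. Alternatives were the pseudocount, the filter, the scaling, the libraries fitted, a replicate block and leaving out libraries.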

Additional observations from a re-analysis of the deposited data

How the results depend on the processing

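Of 4292 log2 fold changes of the 37 genes under alternatives, 4262 moved by less than the SD between replicates, 30 moved by more and 0 reversed a call. Many of these values could not move. A filter, the block, or leaving out a library of a treatment not compared changes the error and not the fold change. Leaving out 1 of 3 replicates also moves a mean by little beside that SD. The count is therefore no measure of how stable the results are. Against DMSO, 5 genes were called lower with 3'-propyl ABA, and 3 with median-of-ratios scaling or with only the 6 libraries compared; leaving out 1 library gave 3 (3'-propyl ABA replicate 1 or 3, or DMSO replicate 3) to 5. Between 3'-butyl ABA and ABA, 4 were called higher, and 2 with a pseudocount of 0.1 or with no filter; leaving out 1 library gave 0 to 6 (6 without DMSO replicate 1). Between 3'-butyl ABA and 3'-propyl ABA, 3 were called higher, 1 with median-of-ratios scaling and 5 without DMSO replicate 1 and ABA replicate 3, a setting chosen after seeing the data. The cause was not tested. Leaving out 1 library gave 14 to 22 genes lower with 3'-butyl ABA (14 without DMSO replicate 3), 19 to 23 higher with 3'-propyl ABA and 18 to 23 lower with ABA against DMSO. Over all genes, 313 were called between 3'-butyl ABA and ABA, from 9 (without 3'-butyl ABA replicate 1) to 592 (without DMSO replicate 1) on leaving out 1 library. With the replicate number as a block that count was 755, and ERF1A with ABA and ATL6 with 3'-propyl ABA were not called against DMSO. ATL31 and DIC2 were then also called between 3'-butyl ABA and ABA, which makes 6 of the 37 genes. Deviations of same-numbered libraries correlated at -0.168 to 0.329, over 0.1 in 9 of 18 pairs. Those of replicate 1 correlated at 0.115 to 0.329, positive for every pair of treatments. The main fit had no block because the labels do not say that the numbers pair libraries. Whether same-numbered libraries were handled together was not tested. A change in a gene of few reads, such as ERF105, ZAT11 or CML39, is poorly measured at this depth.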

Other observations

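Genes of mechanosensing, calcium channels and CAMTA factors, which act before the 37 genes, were also examined (17 genes, all tested). Against DMSO 8 rose and 2 fell with 3'-butyl ABA, 4 rose and 7 fell with 3'-propyl ABA, and 4 rose and 4 fell with ABA by the limma fit (2 fell with ABA without DMSO replicate 1 and ABA replicate 3). Shares of all tested genes called higher and lower were 25.1% and 25.6% with 3'-butyl ABA and 27.5% and 38.5% with 3'-propyl ABA. With ABA they were 22% and 24.7%. The median log2 fold changes of the 17 genes were 0.25 with 3'-butyl ABA, -0.19 with 3'-propyl ABA and 0.11 with ABA. MSL9 and MSL10, which encode mechanosensitive channels, fell by 1.60 ± 0.33 and 0.80 ± 0.09 with 3'-propyl ABA (log2 ± SE). CAMTA3, which encodes a calcium-responsive factor that restrains defence, fell by 0.80 ± 0.10 in the same comparison. MSL9 also fell with ABA, by 1.19 ± 0.33. Other genes of the list rose. The largest called changes with 3'-butyl ABA were rises, of AT1G67310 by 0.67 ± 0.13, AT3G16940 by 0.57 ± 0.11 and AT4G04340 by 0.55 ± 0.09. AT1G67310 and AT4G04340 also rose with ABA, by 0.55 ± 0.13 and 0.55 ± 0.09. Of 7 heat shock genes 1 rose with 3'-propyl ABA, HSP70, by 1.19 ± 0.34. HSP70 had 196, 203 and 237 TPM with 3'-propyl ABA, against 47.6, 125 and 130 TPM with DMSO, and without DMSO replicate 1, the low library, it rose by 0.73 on the log2 scale.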
